A study of Homo sapiens with 28 samples.

Results

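The epithelial-mesenchymal transition (EMT) genes CDH1, CDH2, VIM, SNAI1, SNAI2, ZEB1, ZEB2, TWIST1, OVOL1 and ESRP1 were examined in LNCaP cells, an androgen-responsive line of human prostate cancer. The 10 genes were chosen by symbol, and all 10 were found among the 61815 human genes of the deposited count table. The series comprised 28 libraries of bulk RNA in 8 groups. All cells were kept for 72 h before treatment in charcoal-stripped serum, from which steroids such as androgens have been removed. In a 24-hour experiment, with 3 libraries per group, cells received 0.1% DMSO as vehicle, 1 µM Senexin B, 0.1 nM R1881, or R1881 together with Senexin B. In a 72-hour experiment, with 4 libraries per group, they received vehicle, 500 nM SNX631, 1 nM R1881, or R1881 together with SNX631. R1881 is a synthetic androgen, and Senexin B and SNX631 inhibit CDK8 and CDK19, the kinases of the Mediator complex. The Senexin B dose is that of the sample labels, and the text of the study gives another one. Time, androgen dose and inhibitor all changed between the experiments and cannot be told apart, so values of the experiments are set side by side and were not tested against each other.

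Epithelial cells are held together by E-cadherin, the product of CDH1. In EMT, cells lose this junction and take on mesenchymal traits such as N-cadherin (CDH2) and the intermediate filament vimentin (VIM). Transcription factors of the Snail (SNAI1, SNAI2), ZEB (ZEB1, ZEB2) and Twist (TWIST1) families drive the transition and repress CDH1, whereas OVOL1, a zinc finger repressor, and ESRP1, a regulator of splicing, keep cells epithelial. LNCaP cells are epithelial, and their androgen receptor responds to R1881.

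In these cells, R1881 moved EMT genes of both classes. SNAI2 rose from near the detection limit to between 15.5 and 25.9 CPM (read counts scaled to library size, group means), VIM fell by 0.69 to 0.95 on the log2 scale, and OVOL1 fell past the limits of the test at 72 hours. CDH1 differed little under R1881 and was about 0.1 log2 unit lower with either inhibitor. CDH2, ZEB1 and ZEB2 were at or near 0 in every group.

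Total counts per library ranged from 9846595 to 33809419. The deepest library, replicate 3 of the 24-hour vehicle group, held more than the second highest total of 15248512. KLK3, the androgen-induced gene of prostate-specific antigen, was at 0.70 to 1.79 CPM in libraries without R1881 and at 28.4 to 148 CPM with it. The summed level of 9 luminal prostate markers ranged from 3161 to 5418 CPM. The summed level of 8 fibroblast markers ranged from 10.2 to 38.5 CPM and came mainly from COL1A1 and COL3A1, while COL1A2, DCN, FAP and POSTN held at most 3 counts in any library and POSTN none. Of 3 basal markers, KRT5 had no count, TP63 at most 1 and KRT14 at most 5 (0.44 CPM), and the immune marker PTPRC had at most 3 in any library. Markers of the labelled cell type were thus present, and the basal and immune markers held at most 5 counts each, in all 28 libraries.

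A gene was called when the edgeR quasi-likelihood test gave a false discovery rate (FDR, Benjamini-Hochberg over all genes tested) below 0.01 and the change exceeded 1.5-fold. The study applied the same limits. In both experiments 7 of the 10 EMT genes passed the filter on low counts, and CDH2, ZEB1 and ZEB2 did not. The filter admits a gene that is high in only 1 group, so SNAI2 passed it through the androgen groups. In bulk RNA, fewer cells expressing a gene and less RNA per cell cannot be told apart.

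Per length of exon sequence, CDH1 stood highest, with a median of 91.8 RPKM (reads scaled to exon length and library size) over the 28 libraries and a range of 82.3 to 107. ESRP1 followed with a median of 13.7 RPKM and VIM with 12.0 RPKM, and their ranges overlapped. Within groups they did not, as VIM lay wholly above ESRP1 in each group without R1881 and wholly below it in each group with R1881. SNAI2 spanned 0.023 to 8.17 RPKM, and OVOL1 had a median of 2.02 RPKM. The SNAI2 median of 2.23 RPKM lay between the libraries without R1881 (at most 0.20 RPKM) and those with it (at least 4.26 RPKM). SNAI2 was thus below OVOL1 without R1881 and above it with R1881. SNAI1 and TWIST1, at medians of 0.65 and 0.64 RPKM, did not differ beyond their spread, and neither did ZEB1 (0.017 RPKM), CDH2 and ZEB2 (both at a median of 0). The steps from CDH1 to ESRP1, from OVOL1 to SNAI1 and from TWIST1 to ZEB1 had no overlap between libraries.

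**Figure D1:**
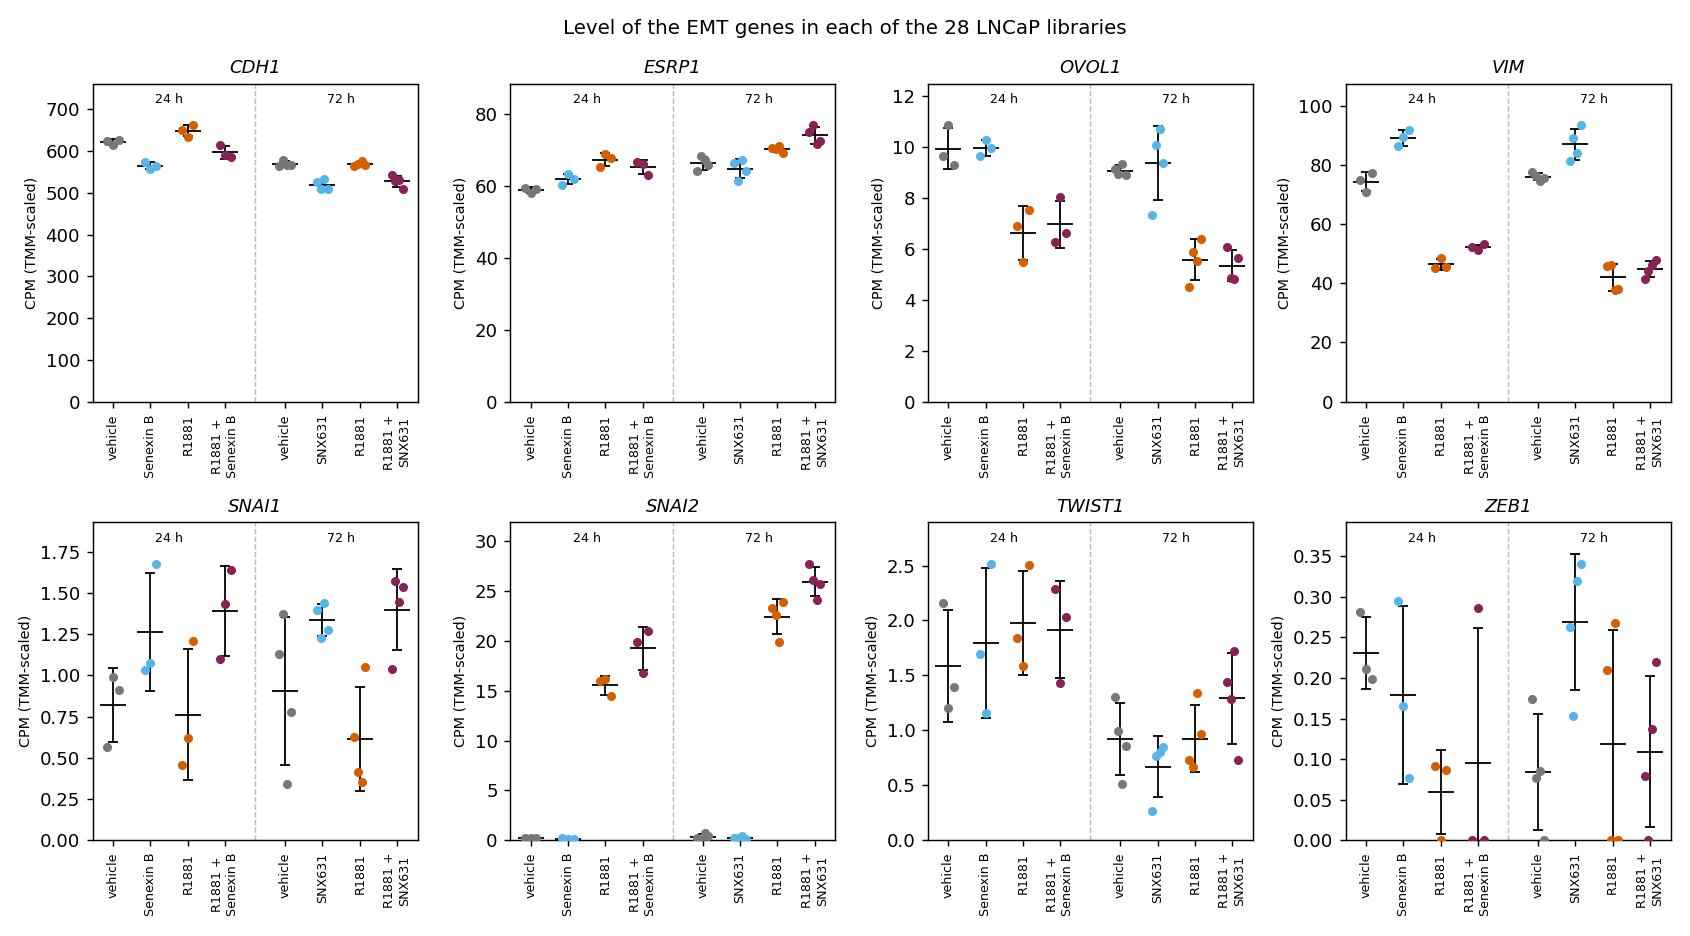
Level of 8 EMT genes (y axis, TMM-scaled CPM, a linear scale from 0 that differs between panels) in the 28 libraries by treatment group (x axis). Points are libraries and bars are group mean ± SD (n = 3 at 24 hours, n = 4 at 72 hours). SNAI2 lies near 0 in all groups without R1881, VIM and OVOL1 are lower in all groups with R1881, and CDH1 is slightly lower with each inhibitor.

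The Snail family gene SNAI2 (chr8:48917604-48921740, minus strand, GRCh38), whose product Slug represses E-cadherin, was close to absent without androgen. Vehicle libraries held 3, 3 and 7 counts at 24 hours and 3, 1, 8 and 6 counts at 72 hours. Libraries with R1881 alone held 174, 183 and 167 counts at 24 hours and 223, 273, 223 and 272 counts at 72 hours. The androgen and vehicle libraries did not overlap in either experiment. In level, SNAI2 went from 0.23 ± 0.044 to 15.5 ± 0.94 CPM (SD, n = 3) at 24 hours, and the log2 fold change was 6.1 ± 0.39 (SE; FDR = 1.36e-22, edgeR quasi-likelihood test). At 72 hours it went from 0.37 ± 0.26 to 22.4 ± 1.78 CPM (SD, n = 4), and the log2 fold change was 5.89 ± 0.36 (SE; FDR = 5.31e-27, edgeR). With so few counts in the control groups, the size of either fold is less certain than its direction.

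The SNAI2 rise was also present with Mediator kinase inhibition. With Senexin B alone the libraries held 3, 1 and 2 counts, and with R1881 added they held 235, 176 and 269. Since each control library was at or under the detection floor of 3 counts, the rise is given as a bound, at least 82.6-fold higher (FDR = 1.47e-22, edgeR). With SNX631 alone the libraries held 3, 3, 5 and 1 counts, and with R1881 added they held 347, 365, 351 and 351, a log2 fold change of 6.66 ± 0.43 (SE; FDR = 1.33e-28, edgeR). In androgen-treated cells, SNAI2 was higher in every library with inhibitor than in every library without it. The difference was 0.32 ± 0.092 log2 units with Senexin B (FDR = 0.00747, under the fold limit) and 0.21 ± 0.071 log2 units with SNX631 (FDR = 0.0175, edgeR). Neither was called, and Senexin B and SNX631 were applied at different doses and times.

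SNAI1 (chr20:49982999-49988886), the other Snail gene measured, was low in all groups and showed a different response. Under R1881 against vehicle its log2 fold change was -0.17 (95% interval -0.92 to 0.59) at 24 hours and -0.58 (95% interval -1.34 to 0.18) at 72 hours, and neither was called. R1881 libraries of the 72-hour experiment held 6, 5, 4 and 12 counts of SNAI1, and those with R1881 and SNX631 held 13, 22, 21 and 21. All but 1 of the libraries without SNX631 lay below those with it, and the ranges, 0.36 to 1.05 CPM and 1.04 to 1.57 CPM, overlapped slightly. SNAI1 was called higher with SNX631 in androgen-treated cells, by 1.19 ± 0.35 log2 units (SE; FDR = 0.00291, edgeR), the 1 call among the 7 genes tested, against 1.89% of all genes called higher and 2.24% called lower. The call rested on few counts and was lost without replicate 2 (1.03, FDR = 0.0183) or replicate 3 (1.01, FDR = 0.0191) of the R1881 group. In the remaining inhibitor comparisons SNAI1 was not called, at 0.55 (Senexin B without R1881, FDR = 0.175), 0.85 (Senexin B with R1881, FDR = 0.0668) and 0.54 log2 units (SNX631 without R1881, FDR = 0.162).

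TWIST1 (chr7:19020991-19117672, minus strand), a basic helix-loop-helix factor of mesoderm, was low and variable. Its group means lay between 1.58 and 1.98 CPM in the 24-hour experiment and between 0.67 and 1.29 CPM in the 72-hour experiment. None of its 8 treatment comparisons was called. The one nearest to the limits was R1881 under SNX631, where libraries with SNX631 alone held 3, 10, 10 and 10 counts and those with R1881 added held 18, 18, 25 and 10. The log2 fold change was 0.93 ± 0.34 (SE; FDR = 0.0117, edgeR), and the groups overlapped. It was called when replicate 4 of the combined group was left out (1.12) or when genes with low counts were kept in the test (0.96).

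The ZEB factors, which repress CDH1 and the epithelial microRNAs, were hardly detected. ZEB1 (chr10:31318495-31529814) had 53 counts in all 28 libraries together, at most 7 in any library and none in 7 of them. ZEB2 had 18 counts in all, at most 3 in a library and none in 15. At this depth 3 counts, the detection floor, correspond to 0.19 to 0.27 CPM (group means), so the ZEB genes lay close to it and no difference is read as a change. At 24 hours the R1881 libraries held 0 to 1 count of ZEB1 and the vehicle libraries 3 to 7, without overlap. When the filter on low counts was dropped, ZEB1 had FDR = 0.23 and ZEB2 FDR = 0.637 for R1881 against vehicle at 24 hours (edgeR). The antisense gene ZEB1-AS1, which overlaps the start of ZEB1 on the opposite strand, was measured at 4.24 to 7.0 CPM (group means), far above ZEB1 itself. ZEB1-AS1 was 0.52 log2 units lower with R1881 at 24 hours (FDR = 0.0037, under the fold limit) and 0.33 log2 units lower at 72 hours (FDR = 0.0376, edgeR).

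Among the mesenchymal structural genes, CDH2 had 13 counts in all 28 libraries, with none in 20 of them and at most 3 in a library. No library of the 24-hour experiment held a CDH2 count, while the group with R1881 and SNX631 held 0, 3, 2 and 3. All of these lie at or under the floor, and no fold is given.

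VIM (chr10:17228259-17237593) was the EMT gene called lower under androgen in all 4 comparisons. Its promoter is shown because VIM alone among the genes called under R1881 has an entry in the RefSeq promoter table (GRCh38.p14), where CDH2, ZEB1 and ZEB2 are also listed and CDH1, SNAI1, SNAI2, TWIST1, OVOL1 and ESRP1 are not. The 250 bases before the start, chr10:17227991-17228240 on the plus strand, read 5′ to 3′ with the GC box GGGCGG in capitals:
VIM promoter: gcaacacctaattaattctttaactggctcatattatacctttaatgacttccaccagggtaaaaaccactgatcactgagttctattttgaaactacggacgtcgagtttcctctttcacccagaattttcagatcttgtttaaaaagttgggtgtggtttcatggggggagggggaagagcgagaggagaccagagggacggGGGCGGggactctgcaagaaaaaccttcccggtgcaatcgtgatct
The GC box, bound by Sp family factors, begins 46 bases before the RefSeq start at 17228241. This start differs from the GENCODE start of VIM, 17228259, given above. Of the 35116 promoters of the table, 42.6% hold the GC box on either strand. The E-box of Snail and ZEB factors, CAGGTG, was searched for on both strands and is held by 17.5% of promoters. The half-site of the androgen receptor, AGAACA, was searched for likewise and is held by 12.4%. Neither string of letters occurred in the VIM window.

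Vehicle libraries stood at 74.8, 70.9 and 77.1 CPM of VIM at 24 hours, and R1881 libraries at 45.1, 48.6 and 45.5 CPM. At 72 hours, vehicle libraries stood at 77.4, 76.2, 74.7 and 75.5 CPM and R1881 libraries at 45.9, 46.1, 37.8 and 38.1 CPM. Every androgen library was lower than every vehicle library. The fall was 0.69 log2 units at 24 hours (log2 fold change -0.69 ± 0.049, SE; FDR = 6.58e-14, edgeR) and 0.86 at 72 hours (-0.86 ± 0.055; FDR = 1.16e-16). Under Senexin B, VIM fell from 89.1 ± 2.71 to 52.1 ± 0.94 CPM (SD, n = 3; log2 fold change -0.77 ± 0.048, SE; FDR = 2.24e-15, edgeR). Under SNX631 it fell from 86.9 ± 5.34 to 44.9 ± 2.73 CPM (SD, n = 4; log2 fold change -0.95 ± 0.051, SE; FDR = 3.58e-19, edgeR).

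With the inhibitors VIM was higher, by less than the fold limit. Without androgen, all Senexin B libraries (86.3, 89.3 and 91.8 CPM) were above all vehicle libraries, by 0.25 log2 units (FDR = 1.58e-05, edgeR). All SNX631 libraries (81.4, 88.9, 84.0 and 93.4 CPM) were likewise above vehicle, by 0.20 log2 units (FDR = 0.000967, edgeR). In androgen-treated cells the differences were 0.17 log2 units with Senexin B (FDR = 0.0154) and 0.10 with SNX631 (95% interval -0.019 to 0.22; FDR = 0.173, edgeR). The antisense gene VIM-AS1, which overlaps the 5′ part of VIM on the opposite strand, was lower by 0.63 log2 units with R1881 at 24 hours (FDR = 0.00456, edgeR). It was 0.78 lower under Senexin B (FDR = 0.000848) and 0.64 lower under SNX631 (FDR = 0.00225), all called, but 0.12 lower at 72 hours without inhibitor (FDR = 0.594, edgeR). VIM-AS1 stood at 2.33 to 4.05 CPM (group means), and the kit marked strand, but whether the counting used strand is not given in the sources used here. Without it, reads of the pair could not be told apart.

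Of the genes that keep cells epithelial, OVOL1 (chr11:65787022-65797219) was lower with androgen. At 72 hours vehicle libraries stood at 9.14, 8.93, 9.35 and 8.90 CPM and R1881 libraries at 4.50, 5.89, 5.53 and 6.41 CPM, with no overlap. OVOL1 fell by 0.69 log2 units (log2 fold change -0.69 ± 0.12, SE; FDR = 3.8e-06, edgeR), and under SNX631 it fell by 0.82 (-0.82 ± 0.11; FDR = 4.81e-08). At 24 hours vehicle libraries stood at 9.67, 10.9 and 9.30 CPM and R1881 libraries at 6.89, 5.47 and 7.52 CPM, again without overlap. That difference was -0.56 ± 0.12 log2 units (SE; FDR = 0.000145, edgeR), and it was -0.52 (FDR = 0.000526) under Senexin B, both short of the fold limit. The 24-hour value moved past the limit when replicate 3 of the vehicle group (-0.64) or of the R1881 group (-0.66) was left out, and the value under Senexin B did so without replicate 2 of the combined group (-0.62). Scaled to library totals alone, both were past the limits (-0.64 with FDR = 2.72e-05, and -0.60 with FDR = 0.000115 under Senexin B, edgeR). Neither inhibitor changed OVOL1 past the limits, and the 4 differences lay between -0.08 and 0.06 log2 units.

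CDH1 (chr16:68737225-68835548) was the most abundant of the 10 genes. With R1881 at 24 hours its libraries stood at 649.6, 634.4 and 661.9 CPM against 624.6, 613.8 and 626.4 CPM with vehicle, all higher, by 0.061 log2 units (95% interval 0.000097 to 0.12; FDR = 0.0794, edgeR). At 72 hours the androgen and vehicle libraries overlapped, and the difference was 0.0013 log2 units (95% interval -0.043 to 0.046; FDR = 0.965, edgeR). Scaled to library totals alone, with no TMM factor, both differences turned negative (-0.016 at 24 hours and -0.10 at 72 hours), as did that under SNX631 (-0.083). That scaling moved the median log2 fold change of all genes by -0.10 for R1881 at 72 hours, as much as it moved CDH1.

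With the inhibitors, CDH1 was lower in every library than in its control, in all 4 comparisons. With Senexin B alone the libraries stood at 575, 556 and 565 CPM, 0.14 log2 units below vehicle (FDR = 0.000502, edgeR). With SNX631 alone they stood at 525, 508, 533 and 509 CPM, against 563, 578, 566 and 567 CPM with vehicle, 0.13 log2 units lower (FDR = 6.91e-06, edgeR). In androgen-treated cells CDH1 was 0.12 log2 units lower with Senexin B (FDR = 0.00261) and 0.11 lower with SNX631 (FDR = 0.000102, edgeR). All 4 differences were far under the fold limit and none was called. The FDR with Senexin B and R1881 went above 0.01 when 1 of 3 libraries was left out, up to 0.0213 without replicate 3 of the combined group.

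ESRP1 (chr8:94641074-94707466), which directs epithelial splicing, was steady. Its group means ranged from 58.8 to 74.0 CPM, and no comparison was called. It was higher with R1881 by 0.19 log2 units at 24 hours (FDR = 0.000348) and by 0.083 at 72 hours (FDR = 0.0617, edgeR), the latter at -0.020 with library totals alone. Under Senexin B the libraries with and without R1881 overlapped, and the difference was 0.076 log2 units (FDR = 0.155, edgeR). Under SNX631 all libraries with R1881 were higher than those without it, by 0.19 log2 units (FDR = 2.29e-05, edgeR), which is under the fold limit.

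**Figure D2:**
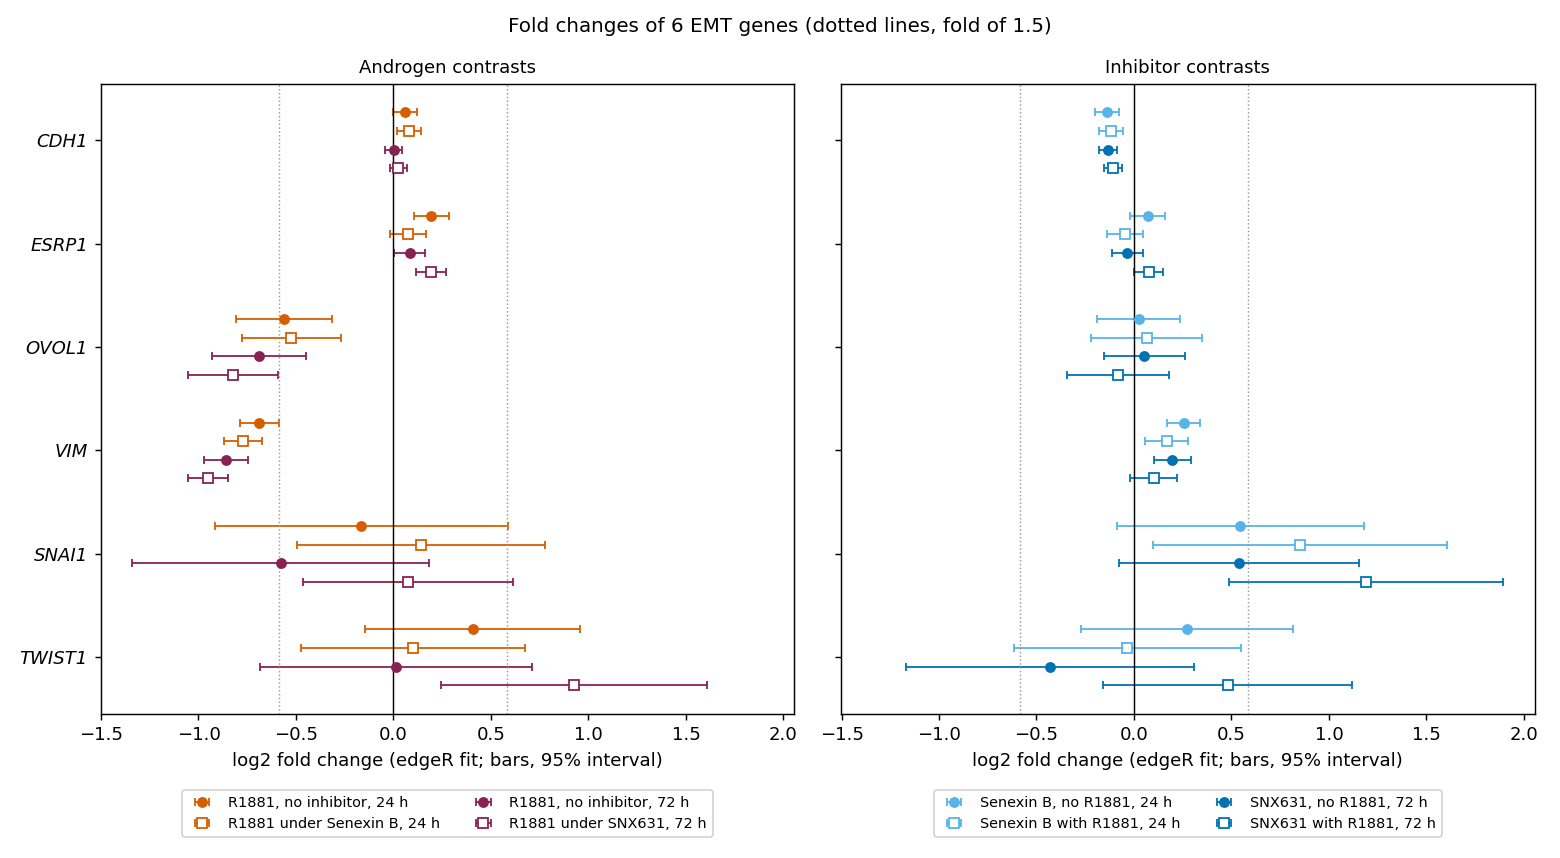
Log2 fold changes (x axis) of 6 EMT genes (y axis) in the 4 androgen comparisons and the 4 inhibitor comparisons. Symbols are edgeR estimates, bars their 95% intervals and dotted lines a fold of 1.5. VIM and OVOL1 lie below 0 in all androgen comparisons, CDH1 lies slightly below 0 in all inhibitor comparisons, and the intervals of SNAI1 and TWIST1 are wide. SNAI2 is left out for its larger androgen effect.

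Counted over the 7 genes tested, R1881 against vehicle at 24 hours gave 1 gene called higher (SNAI2) and 1 called lower (VIM), beside 9.81% and 9.19% of all genes. Under Senexin B the counts were again 1 and 1, beside 9.97% and 8.9% of all genes. At 72 hours R1881 gave 1 higher (SNAI2) and 2 lower (VIM and OVOL1), beside 9.7% and 10.1%, and under SNX631 again 1 and 2, beside 10.1% and 12%. With library totals in place of TMM, calls of all genes leaned to lower ones in each of these comparisons (1356 higher and 1811 lower at 24 hours, 1401 and 1756 under Senexin B, 1299 and 2121 at 72 hours, 1311 and 2435 under SNX631). The comparisons without and with inhibitor have no library in common, but within an experiment they share the fit and its estimate of the spread. At shares near 1 in 10 genes called in each direction, the number of EMT genes called did not by itself stand apart from the background.

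Under the inhibitors at most 1 of the 7 EMT genes tested was called in a comparison. Senexin B called none of the 7 by edgeR, either without R1881 (beside 2.02% of all genes higher and 1.77% lower) or with it (beside 1.61% and 1.5%). At an unadjusted p under 0.05 these comparisons held 2 and 4 of the 7 genes, and DESeq2 called 0 in each. Of all 15948 genes, 2147 higher and 1862 lower without R1881, and 2029 and 1593 with it, passed even an FDR below 0.01 at any fold. The counts at an unadjusted p are therefore not read as an excess. SNX631 without R1881 called 0 (beside 2.82% and 1.94%), with 2 genes at an unadjusted p under 0.05 and 0 called by DESeq2. Of all 16074 genes in that comparison, 2309 higher and 2012 lower passed an FDR below 0.01 at any fold. SNX631 with R1881 called 1, SNAI1 (beside 1.89% and 2.24%), with 3 genes at an unadjusted p under 0.05 and 1 called by DESeq2. There 2855 higher and 2471 lower of all genes passed an FDR below 0.01 at any fold. At such shares of all genes, 0 or 1 call among 7 genes did not by itself stand apart from the background.

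Whether an inhibitor altered the androgen response of a gene was tested as the interaction of both. None of the 7 EMT genes had a called interaction with Senexin B (beside 0.245% of all genes higher and 0.332% lower) or with SNX631 (beside 0.373% and 0.821%), by edgeR or DESeq2. At an unadjusted p under 0.05 there were 0 genes at 24 hours and 1 at 72 hours, ESRP1, with an interaction of 0.11 log2 units (FDR = 0.194, edgeR). Of all 16074 genes at 72 hours, 481 higher and 659 lower interactions passed an FDR below 0.01 at any fold. For VIM the interaction was -0.085 log2 units (95% interval -0.23 to 0.055) with Senexin B and -0.095 (95% interval -0.25 to 0.057) with SNX631. For SNAI2, limited by the few counts without androgen, the intervals were wide, from -0.62 to 2.18 log2 units with Senexin B and from -0.37 to 1.90 with SNX631. By contrast KLK3 had called interactions of -1.23 (FDR = 0.00624) and -1.53 log2 units (FDR = 6.2e-05, edgeR).

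The ratio of CDH1 to VIM per length of exon does not depend on the scaling of a library. It is given as a description of CDH1 and VIM alone, not of epithelial against mesenchymal RNA as a whole. It was 6.99 ± 0.22 with vehicle and 11.7 ± 0.69 with R1881 at 24 hours (SD, n = 3), and 6.25 ± 0.12 and 11.4 ± 1.32 at 72 hours (SD, n = 4). Every R1881 library had a higher ratio than every vehicle library. VIM made up most of that rise, at -0.69 log2 units at 24 hours and -0.86 at 72 hours, while CDH1 differed by 0.061 and 0.0013. SNAI2, which was higher with R1881, and OVOL1, which was lower, do not enter the ratio. With Senexin B the ratio was 5.30 ± 0.22 without R1881 and 9.57 ± 0.32 with it (SD, n = 3). With SNX631 it was 5.0 ± 0.41 and 9.87 ± 0.84 (SD, n = 4). Both inhibitor groups without R1881 lay wholly below their vehicle group. Libraries with R1881 and Senexin B (9.22 to 9.86) also lay wholly below those of R1881 alone (10.9 to 12.2), whereas libraries with R1881 and SNX631 overlapped with those of R1881 alone.

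**Figure D3:**
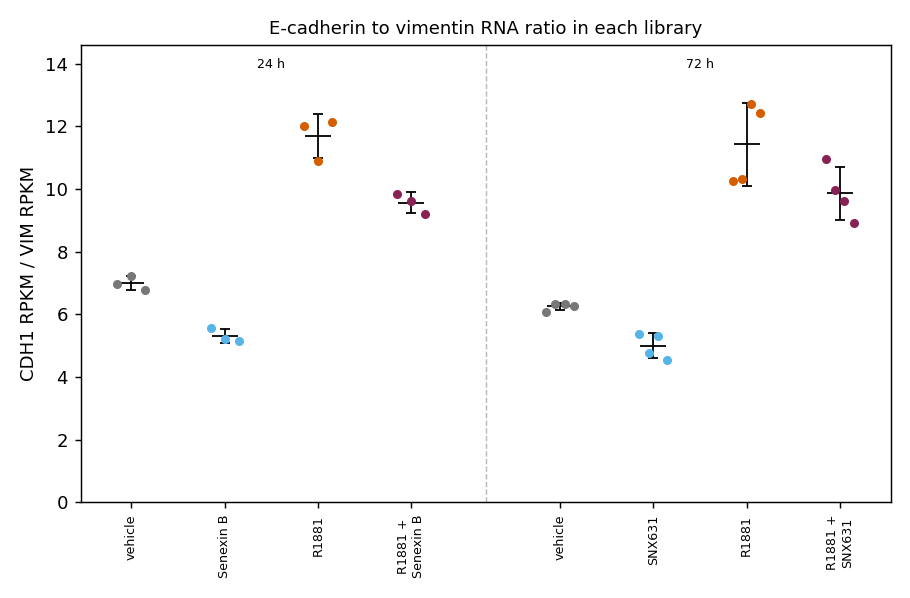
Ratio of CDH1 to VIM RNA per length (y axis, RPKM over RPKM, from 0) in each of the 28 libraries by group (x axis). Points are libraries and bars are mean ± SD (n = 3 at 24 hours, n = 4 at 72 hours). Group means are 6.99 and 6.25 with vehicle, 11.7 and 11.4 with R1881, and between 5.0 and 9.87 in the groups with an inhibitor.

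Wider lists of EMT genes were read in the same fits, by counts and medians only. The lists were chosen with earlier results of these data known, so their counts are a description and no test of an excess. Of 12 other EMT transcription factors, 6 were tested at 24 hours and 5 at 72 hours. R1881 called at most 2 of them in a comparison, beside 9.81% of all genes higher and 9.19% lower at 24 hours and 9.7% and 10.1% at 72 hours. For R1881 under Senexin B these shares were 9.97% and 8.9%, and under SNX631 they were 10.1% and 12%. GSC, a homeobox factor of the embryonic organizer, was lower with R1881 at 72 hours (-0.99). It was also lower with R1881 in cells that received either inhibitor (-0.68 and -0.64). TCF4 was higher with R1881 at 72 hours (0.64). Their median log2 fold change under R1881 was -0.39 at 24 hours and -0.18 at 72 hours, against -0.016 and -0.014 over all genes.

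Of 13 epithelial transcription and splicing factors, 11 were tested at 24 hours, of which R1881 called 6 higher and 1 lower. At 72 hours 10 were tested, of which 5 were higher and 1 lower. Of all genes, 9.81% were called higher and 9.19% lower at 24 hours and 9.7% and 10.1% at 72 hours. The median log2 fold change was 0.78 and 0.70. KLF4, a factor of epithelial differentiation, rose from 1.96 to 7.43 CPM at 24 hours (1.84 ± 0.17, FDR = 1.34e-11) and from 1.2 to 9.36 CPM at 72 hours (2.98 ± 0.21, FDR = 3.74e-18, edgeR). KLF5 rose by 1.37 and 1.89 log2 units and ELF5 by 2.05 and 0.91. ELF5 was low, with 3 to 24 counts in vehicle libraries at 24 hours and 7 to 16 at 72 hours. The single gene called lower in both was ELF3, an epithelial ETS factor (-1.16 and -1.03). KLF5 was also the one gene of the list called lower with each inhibitor, by -0.89 (Senexin B) and -0.98 log2 units (SNX631) without R1881 and by -0.76 and -1.09 with it.

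Of 39 epithelial junction and keratin genes, 37 were tested in each experiment, and R1881 called 2 higher and 3 lower at 24 hours and 4 higher and 1 lower at 72 hours. Of all genes, 9.81% were called higher and 9.19% lower at 24 hours and 9.7% and 10.1% at 72 hours. Taken over both directions together, the share of these genes called was below that of all genes in both experiments. By direction this did not hold throughout, as the 4 of 37 called higher at 72 hours were not below the share of all genes. Counts this small are not read as a trait of the list. The median was -0.073 and 0.012 log2 units. KRT19, a keratin of simple epithelia, rose from 0.47 to 10.3 CPM at 24 hours (4.43 ± 0.27, FDR = 2.78e-19) and from 0.24 to 7.43 CPM at 72 hours (4.99 ± 0.51, FDR = 1.43e-17, edgeR). Vehicle libraries held only 4 to 16 counts of KRT19 at 24 hours and 0 to 5 at 72 hours. The size of the KRT19 folds is thus less certain than their direction. ST14, the membrane protease matriptase, rose by 0.60 and 0.66 log2 units. OCLN, the tight junction protein occludin, fell by 1.11 log2 units at 24 hours (-1.11) and by 1.31 at 72 hours (-1.31). With inhibitor in androgen-treated cells, KRT19 was lower by -0.70 with Senexin B and -0.64 with SNX631, and TJP3, a tight junction scaffold, by -0.70 and -0.71.

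Of 35 mesenchymal genes, 18 were tested at 24 hours and 20 at 72 hours, and R1881 called 4 higher and 5 lower at 24 hours and 5 higher and 7 lower at 72 hours. Of all genes, 9.81% were called higher and 9.19% lower at 24 hours and 9.7% and 10.1% at 72 hours. The medians were -0.10 and -0.36 log2 units. LOX, a collagen cross-linking oxidase, rose from 0.45 to 4.87 CPM at 24 hours (3.62 ± 0.32, FDR = 8.85e-14, edgeR) and from 0.16 to 4.39 CPM at 72 hours (4.67 ± 0.53, FDR = 1.26e-15, edgeR). THBS1, thrombospondin, rose by 3.31 and 1.88 log2 units from 0.35 and 0.36 CPM. Vehicle libraries held 4 to 11 counts of LOX at 24 hours and 0 to 5 at 72 hours, and 3 to 7 and 3 to 6 of THBS1. With so few counts, the size of the LOX and THBS1 folds is less certain than their direction. NNMT, a nicotinamide methyltransferase, was at or under the floor in vehicle and at least 5.22-fold higher at 24 hours and at least 6.40-fold higher at 72 hours. Of the genes called lower, FN1, fibronectin, fell from 202 to 101 CPM at 24 hours (-1.0 ± 0.055, FDR = 1.05e-16) and from 270.1 to 153 CPM at 72 hours (-0.82 ± 0.039, FDR = 1.43e-20, edgeR). COL3A1, a fibrillar collagen, fell from 4.47 to 1.33 CPM at 24 hours (-1.76 ± 0.22, FDR = 2.61e-09) and from 4.24 to 1.11 CPM at 72 hours (-1.93 ± 0.24, FDR = 5.79e-10, edgeR). Both directions were thus found within the list, and its medians do not depend on the size of the NNMT rise, which lies above them.

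Collagens and fibronectin of the same list were called with the inhibitors. COL3A1 was higher without androgen, by 1.22 log2 units with Senexin B (FDR = 6.68e-10) and by 1.49 with SNX631 (FDR = 1.33e-12, edgeR). In androgen-treated cells its group mean was also higher, at 2.296 against 1.327 CPM with Senexin B and 2.687 against 1.11 CPM with SNX631. COL1A1 was lower in all 4 inhibitor comparisons, by -1.05 and -0.62 log2 units without androgen and by -0.85 in both experiments with it. FN1 was higher in androgen-treated cells by 0.74 with Senexin B and 0.67 with SNX631. COL1A1 and COL3A1 also stand in the fibroblast marker list, as does PDGFRB.

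**Figure D4:**
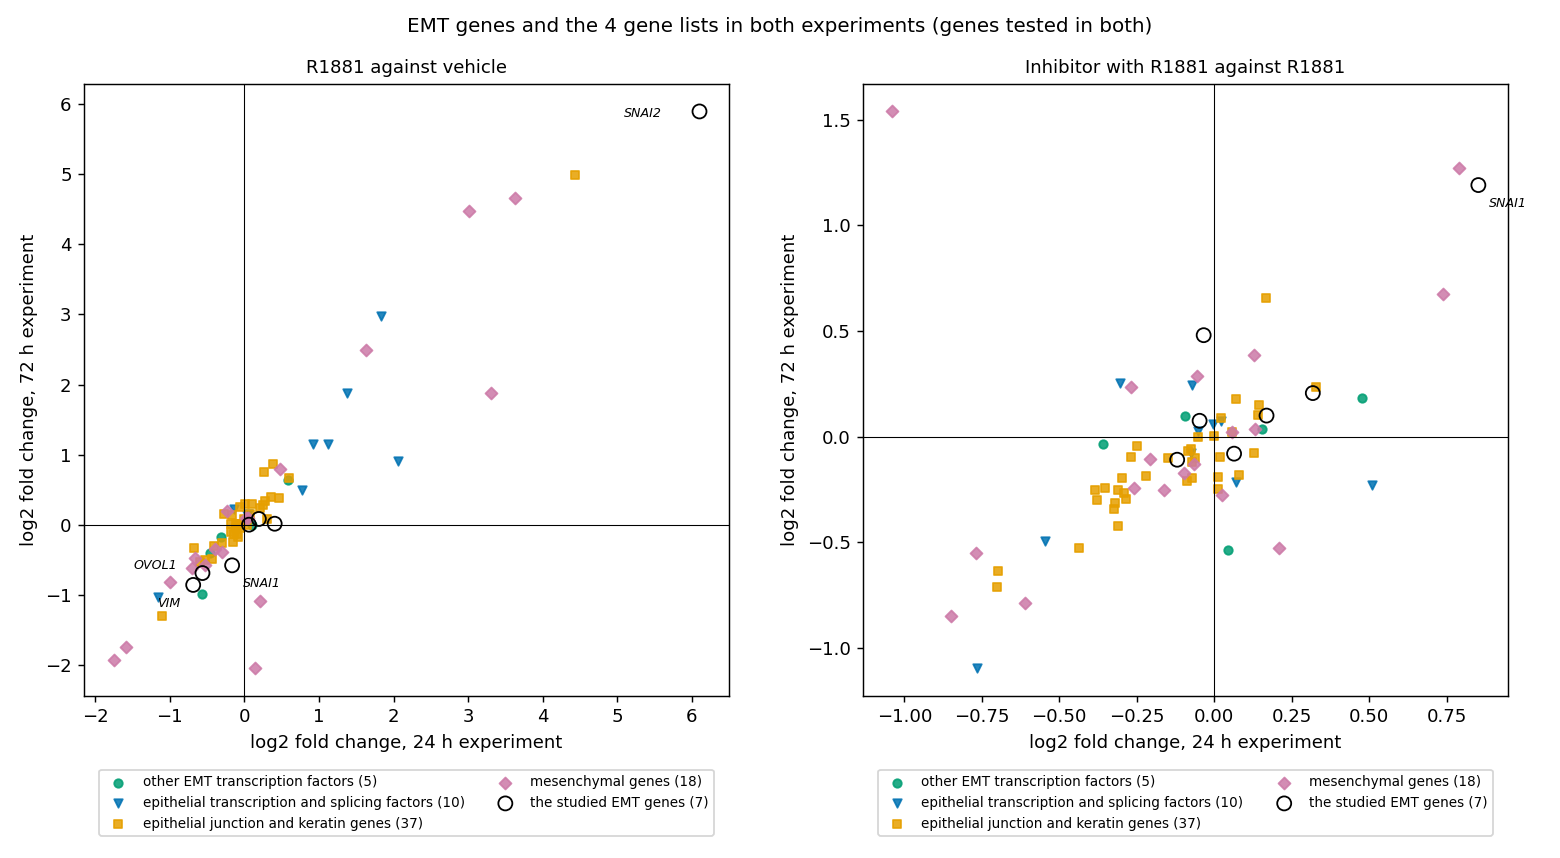
Log2 fold change at 24 hours (x axis) against that at 72 hours (y axis) for genes tested in both experiments, for R1881 against vehicle and for inhibitor with R1881 against R1881 alone. Filled symbols are genes of the 4 lists and open circles the 7 EMT genes tested. SNAI2 lies beyond all list genes for R1881, and VIM and OVOL1 lie among list genes of both classes that are lower.

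The genes with levels most like those of an EMT gene were sought among 16672 genes by Pearson's r of log2 CPM over all 28 libraries. The libraries share treatments and experiments, so r is given as a description with no test. For SNAI2 they were HOMER2 (r = 0.99), TMPRSS2 (r = 0.99) and a gene with no symbol (ENSG00000276418, r = 0.99). For VIM they were PITX1 (r = 0.98), CPNE3 (r = 0.98) and SESN3 (r = 0.98), and for OVOL1 NFAT5, MRNIP and SLC9A3-AS1 (r = 0.93, 0.92 and 0.92). For CDH1 they were GPER1, RLN1 and RASEF (r = 0.95, 0.94 and 0.94), and for ESRP1 TNPO3, GNPNAT1 and PTGES3 (r = 0.92, 0.91 and 0.89). For the low genes r was smaller, with HLTF at 0.74, LRPPRC at 0.73 and ATP6V1E2 at 0.72 for SNAI1 and NSUN4 at 0.86, OSBPL5 at 0.80 and FPGS at 0.79 for TWIST1.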

How the data were processed

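RNA-Seq libraries were made from total RNA with a directional kit. Per the submitters' processing notes, the authors used FastQC, cutadapt 2.8, STAR 2.7.2b and featureCounts of Subread 2.0.3, with builds GRCh38.p13 and GRCm39 named. The strand setting and the annotation release are not given in the sources used here. The authors deposited expected counts per gene, unscaled, in which 16.9% of the values above 0 were fractional. They were rounded to whole counts, and 2 non-human entries with 0 counts were dropped. Each experiment was fitted alone with edgeR 4.0.16 (R 4.3.3) by its quasi-likelihood test with TMM factors, after filterByExpr (min.count 10, min.total.count 15) had kept 15948 genes at 24 hours and 16074 at 72 hours. The labels call the libraries biological replicates. CPM is scaled by TMM, and RPKM uses exon lengths of GENCODE 29 (GRCh38), whose positions are printed. Intervals are at 95% from the Wald SE. The floor of 3 counts covers counting error only, as reads are not independent molecules. The EMT genes and the lists were chosen with earlier results of these data known. Genes named from a list are up to 3 with the largest mean change whose calls had 1 direction at both times, and ELF3, GSC and TCF4, and FN1 and COL3A1 under R1881, were named after their values were seen. The alternatives were other scalings, DESeq2 1.42.0, no filter, no fold limit, a replicate block, 1 fit of all 28 libraries and leaving out each library. Thinning the deepest library to the second highest total was chosen after seeing the data. The code was tested on simulated data in which only genes with high counts were changed, so genes with few counts were not covered. Figures were drawn with matplotlib 3.10.9.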

Additional observations from a re-analysis of the deposited data

Results flagged for a closer look

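TWIST1 in replicate 1 of the SNX631 group at 72 hours stood apart from the remaining 3 libraries of its group. It was at 0.26 CPM, from 3 counts, while the others lay between 0.77 and 0.85 CPM. The gap to the nearest library was 0.86 of the range of the group, which is past the 95% limit of Dixon's test. Of 29 gene and group pairs tested in this way, chance flags about 1 in 20.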

How the results depend on the processing

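With library totals in place of TMM, the share of R1881 calls that were higher went from 48.9% (1559 higher, 1626 lower) to 38.0% (1299 and 2121) at 72 hours, and under SNX631 from 45.7% (1619 and 1924) to 35.0% (1311 and 2435). At 24 hours it went from 51.7% (1565 and 1465) to 42.8% (1356 and 1811), and under Senexin B from 52.8% (1590 and 1419) to 44.4% (1401 and 1756). The falls of OVOL1 at 24 hours then passed the fold limit (-0.64, and -0.60 under Senexin B). It also turned log2 fold changes that were not called, to -0.016 (CDH1, R1881 at 24 hours), -0.10 (CDH1), -0.086 (TWIST1) and -0.020 (ESRP1, R1881 at 72 hours), -0.083 (CDH1) and -0.033 (SNAI1, R1881 under SNX631), and -0.014 (OVOL1, Senexin B, also -0.026 with the deepest library thinned). The calls of SNAI2, VIM and, at 72 hours, OVOL1 under R1881 kept their direction and their side of the limits under all alternatives.

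Without the fold limit, EMT genes called were 4 in place of 2 for R1881 at 24 hours, 2 in place of 0 for Senexin B without and with R1881 and for SNX631 without R1881, and 2 in place of 1 for SNX631 with R1881. Genes of the 4 lists were then 44 in place of 21 (R1881, 24 hours), 47 and 21 (under Senexin B), 29 and 5 (Senexin B), 27 and 6 (Senexin B with R1881), 2 and 0 (interaction), and at 72 hours 51 and 25, 50 and 23, 30 and 4, 36 and 8, and 13 and 1. In the same order, all genes called higher and lower at 24 hours were then 4188 and 3528, 4192 and 3388, 2147 and 1862, 2029 and 1593, and 172 and 162, of 15948 tested. At 72 hours they were 4436 and 3961, 4797 and 4420, 2309 and 2012, 2855 and 2471, and 481 and 659, of 16074 tested. The 5 list genes called with Senexin B were 3 by DESeq2, and the 1 interaction at 72 hours was 0 by DESeq2 and 2 without the filter.

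The replicate numbers of the labels are not stated to pair libraries, and deviations of libraries with the same number were little correlated (r from -0.073 to 0.29 at 24 hours and from -0.18 to 0.11 at 72 hours). With a replicate block the list genes called with Senexin B were 3, and the counts of EMT genes called were the same in all 10 comparisons.

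Leaving out 1 library gave 0 to 1 EMT genes for SNX631 with R1881, 3 to 6 list genes for Senexin B, 2 to 5 for SNX631 and 0 to 2 for the interaction at 72 hours. The count for Senexin B was 3 without replicate 3 of the Senexin B group, replicate 1 of the R1881 group or replicate 2 of the combined group, and that for SNX631 was 2 without replicate 3 of its group. The interaction count was 0 without replicate 2 of vehicle or replicate 3 of the SNX631, R1881 or combined group, and 2 without replicate 1 of vehicle or replicate 2 of the combined group. Small log2 fold changes that were not called crossed 0. For OVOL1 they ranged from -0.053 to 0.089 (Senexin B), -0.067 to 0.16 (Senexin B with R1881), -0.016 to 0.15 (SNX631) and -0.099 to 0.13 (interaction, 24 hours). For TWIST1 they ranged from -0.13 to 0.41 (R1881 under Senexin B), -0.22 to 0.21 (R1881, 72 hours), -0.18 to 0.17 (Senexin B with R1881), -0.043 to 0.50 (Senexin B) and -0.54 to 0.00096 (interaction, 24 hours). For SNAI1 they ranged from -0.66 to 0.095 (R1881, 24 hours) and -0.0060 to 0.40 (under Senexin B), and for CDH1 from -0.0065 to 0.0068 (R1881, 72 hours) and -0.019 to 0.032 (interaction, 24 hours). The cause of these shifts was not tested. Few counts limit CDH2, ZEB1, ZEB2, SNAI1, TWIST1 and, without androgen, SNAI2 and the list genes ELF5, KRT19, LOX, NNMT and THBS1.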
